A study of Mus musculus with 28 samples.

Results

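The genes described here are the mitochondrial ribosomal protein genes of mouse liver, taken by name as every symbol that starts with Mrpl or Mrps followed by a digit and that averaged at least 1 CPM (reads of a gene scaled to a common library size) over all libraries. The deposited tables held 76 such symbols among 23393, and 75 met the level: 46 Mrpl genes of the large subunit and 29 Mrps genes of the small subunit. All 75 were also among the 12607 genes tested. The symbol left out was Mrpl23, at 0.386 CPM, and the members nearest the limit were Mrps36 at 1.95 CPM and Mrps33 at 4.67 CPM. The rule uses the symbol and the mean level, not a difference between groups.

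RNA was sequenced from flash-frozen livers of 28 mice of strain 129svj aged 11 to 13 months, with 1 library per mouse. The 4 groups held 7 mice each: SIRT6 heterozygotes (HZ) given WY-14643 (WY) by gavage at 50 mg/kg in 0.5% carboxymethylcellulose, wild types (WT) given the same, HZ given carboxymethylcellulose alone (vehicle), and WT given vehicle. All livers were taken 12 h after the dose. WY-14643 is an agonist of PPARα, the nuclear receptor that switches on fatty acid oxidation genes in hepatocytes, and SIRT6 is a nuclear NAD-dependent deacylase of histones. The sources used here give neither the allele nor the sex of the animals, and the tissue is whole liver, so fewer cells of a type and less RNA per cell cannot be told apart.

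Mitochondrial ribosomes translate the few proteins encoded by mitochondrial DNA, all of them subunits of the respiratory chain and ATP synthase. Their RNA comes from the mitochondrial genome, whereas every protein of both subunits is encoded in the nucleus, made in the cytosol and imported. The large subunit joins amino acids and carries the exit tunnel to the inner membrane, and the small subunit binds the messenger RNA and reads its codons. Some symbols mislead: the proteins of Mrps18a and Mrps30 sit in the large subunit, and the protein of Mrps36 belongs to the α-ketoglutarate dehydrogenase complex.

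Assigned counts per library lay between 15795201 and 20020078. Sirt6, the targeted gene, averaged 1.61 ± 0.36 CPM in HZ livers and 3.31 ± 0.68 CPM in WT livers under WY (SD, n = 7 each), and the log2 fold change was -1.04 (edgeR, adjusted p = 0.00721). With vehicle it averaged 1.21 ± 0.18 CPM in HZ livers and 2.38 ± 0.62 CPM in WT livers, a log2 fold change of -0.97 (adjusted p = 0.00696). On a principal component plot of all genes, 5 HZ libraries stood apart from the rest: WY animals 14, 15 and 21 and vehicle animals 30 and 38. Their summed level of 12 Kupffer cell and macrophage markers was 940, 592, 792, 823 and 738 CPM in that order, against 283 to 483 CPM in the WT livers of both treatments. The other HZ livers lay at 330 to 639 CPM, so vehicle-treated HZ animal 35, at 639 CPM, was above WY animal 15. Without the 5 libraries that stood apart, the vehicle difference in Sirt6 was -1.04 with an adjusted p of 0.0549. Counts of genotype calls below are given with and without those 5 libraries. Hepatocyte markers were abundant in every library, with summed levels of 54052 to 123727 CPM, although Ass1, 1 of the 10, was counted at only 0.404 CPM on average. Of 12 PPARα target genes, 11 in HZ livers and 10 in WT livers were higher after WY than after vehicle. Vehicle and WY libraries were deposited in separate count tables, and the sources used here do not say whether they were prepared or sequenced apart.

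To show the regulatory sequence that stands before these genes, RefSeq promoter windows (GRCm38.p6) were matched to 66 of the 75 members. Each window ran from 250 bases before the transcription start to 50 bases after it. The 5 words searched on both strands were GCGCANGC, the core of the nuclear respiratory factor 1 (NRF1) site, CCGGAAGT, the site of ETS factors including GABPA, AAGATGGCG, a YY1 site, CACGTG, the E-box of MYC and clock factors, and AGGTCA, the half-site of nuclear receptors. No word contains another, and matches of different words may overlap. The 6 stretches below are the 4 large-subunit genes with a window that responded most to WY in WT livers, the small-subunit gene that did so, and Mrpl51, the gene called lower in HZ than in WT livers with WY and with vehicle. Capitals mark the words found. Each stretch ends at the last base before the RefSeq start, except that of Mrpl51, whose last base lies 36 bases before it, where a GENCODE exon begins. GENCODE starts differ: the last 12 bases printed for Mrpl17 and the last 24 for Mrpl12 lie in a GENCODE exon. The RefSeq start of Mrpl51 lies 399 bases inside the GENCODE gene, so that its stretch lies downstream of the start used for the distance to Ncapd2 below. The RefSeq start of Mrps18b lies 51 bases before its GENCODE start, which was used for the distance to Ppp1r10 below. Ppp1r10 starts 45 bases from that GENCODE start, so the printed Mrps18b stretch lies past the start of Ppp1r10.
Mrpl17: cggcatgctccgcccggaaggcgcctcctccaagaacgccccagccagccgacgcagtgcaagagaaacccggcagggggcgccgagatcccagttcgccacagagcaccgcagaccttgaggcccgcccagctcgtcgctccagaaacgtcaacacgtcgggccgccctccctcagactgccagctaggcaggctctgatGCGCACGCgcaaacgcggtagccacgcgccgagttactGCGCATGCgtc
Mrpl43: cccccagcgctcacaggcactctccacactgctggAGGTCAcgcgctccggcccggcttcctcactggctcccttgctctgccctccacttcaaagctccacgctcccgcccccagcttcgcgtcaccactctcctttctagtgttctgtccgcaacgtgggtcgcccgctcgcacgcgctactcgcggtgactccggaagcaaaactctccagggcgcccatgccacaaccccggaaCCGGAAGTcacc
Mrpl12: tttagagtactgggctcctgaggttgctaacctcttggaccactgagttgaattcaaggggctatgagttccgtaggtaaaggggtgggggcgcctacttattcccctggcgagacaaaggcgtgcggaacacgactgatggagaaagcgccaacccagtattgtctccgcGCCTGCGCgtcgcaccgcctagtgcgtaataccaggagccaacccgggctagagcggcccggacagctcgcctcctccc
Mrpl52: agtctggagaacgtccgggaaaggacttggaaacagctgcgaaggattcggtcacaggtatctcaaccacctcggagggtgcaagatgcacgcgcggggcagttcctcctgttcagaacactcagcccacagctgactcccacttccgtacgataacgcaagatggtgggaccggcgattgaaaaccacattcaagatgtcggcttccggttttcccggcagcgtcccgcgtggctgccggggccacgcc
Mrps18b: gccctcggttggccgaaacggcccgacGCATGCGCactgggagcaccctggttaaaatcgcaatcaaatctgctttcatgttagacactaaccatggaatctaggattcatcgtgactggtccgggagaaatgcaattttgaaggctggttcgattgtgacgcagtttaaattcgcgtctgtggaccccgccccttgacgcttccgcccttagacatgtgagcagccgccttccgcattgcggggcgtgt
Mrpl51: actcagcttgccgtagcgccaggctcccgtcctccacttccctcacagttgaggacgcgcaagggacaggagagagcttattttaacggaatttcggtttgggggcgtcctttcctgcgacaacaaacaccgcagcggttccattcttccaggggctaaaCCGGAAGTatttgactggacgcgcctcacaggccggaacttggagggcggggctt

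These stretches lie at chr7:105811088-105811337 (minus strand) for Mrpl17, chr19:45006443-45006692 (minus) for Mrpl43, chr11:120484387-120484636 (plus) for Mrpl12, chr14:54426659-54426908 (plus) for Mrpl52, chr17:35916441-35916690 (minus) for Mrps18b and chr6:125191950-125192164 (plus) for Mrpl51. Mrpl17 carried the NRF1 word at 49 and at 11 bases before the RefSeq start, the second of them in that exon, Mrpl12 at 79 and Mrps18b at 223. Mrpl43 and Mrpl51 carried the ETS word at 12 and 90 bases before the start, Mrpl43 also the half-site at 215, and the printed stretch of Mrpl52 holds none of the 5 words. In the 50 bases from the start, which are not printed, Mrpl52 carried an ETS word and Mrpl12 a half-site. The shares below count whole windows. Among the members' windows, 28.8% held the NRF1 word, against 20.0% of the windows of 9923 tested genes and 10.1% of all 27025 windows. The ETS word stood in 16.7% of members, 8.46% of tested genes and 4.0% of all windows. The YY1 word stood in 12.1%, 3.23% and 1.49%, the E-box in 7.58%, 10.2% and 7.12%, and the half-site in 15.2%, 12.5% and 16.1%. At least 1 of the NRF1, ETS and YY1 words was found in 35 of the 66 members. A match is a run of letters and not a measured binding site.

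A second feature of position is that many members start back to back with another gene. Of the 75 members, 22 (29.3%) had the start of a protein-coding gene on the opposite strand within 1000 bases in head-to-head orientation (overlaps of up to 200 bases included), against 11.8% of 12145 protein-coding genes tested. Mrps34 and Eme2 start 29 bases apart, Mrps18b and Ppp1r10 45 bases apart, Mrpl49 and Fau 59 bases apart, and Mrpl51 and Ncapd2 100 bases apart. Exons of 25 members overlap an exon of another annotated gene, 21 of them on the opposite strand. Mrpl43 overlaps Twnk, the mitochondrial helicase gene, Mrpl36 overlaps Ndufs6, Mrpl9 overlaps Oaz3 and Mrpl13 overlaps Mtbp. Since the sources used here do not give the strand setting of the counting, values of these members are uncertain where exons overlap.

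Mean levels of the members over all libraries ran between 1.95 and 131 CPM, and 54 of the 75 lay between 20 and 60 CPM. Per kilobase of merged exon, the median was 24.0 CPM for the large-subunit genes and 18.9 CPM for the small-subunit genes. Mrpl12, whose protein forms the stalk of the large subunit and binds the mitochondrial RNA polymerase, had the highest level at 99.7 CPM per kilobase. Mrpl14, Mrpl52, Mrpl33 and Mrpl42 followed at 81.6, 74.6, 72.7 and 60.4 CPM per kilobase. The lowest levels were those of Mrps25 at 2.02, Mrpl48 at 2.27, Mrps36 at 2.77, Mrps33 at 3.04 and Mrpl19 at 3.77 CPM per kilobase. These per-kilobase levels depend on the annotated exon length, which runs between 478 bases (Mrpl33) and 7605 bases (Mrpl17).

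WY-14643 raised most of the family in both genotypes. In HZ livers 58 members were higher and 2 lower after WY than after vehicle at an adjusted p below 0.05, and in WT livers 62 were higher and 1 lower. Over all genes tested, 29.3% were called higher and 26.4% lower in HZ livers, and 27.4% higher and 26.7% lower in WT livers. The median log2 fold change of the members was 0.35 in HZ livers and 0.43 in WT livers, against 0.01 and -0.02 over all genes tested. The change of single members was modest, at most 0.82 in HZ livers and 0.81 in WT livers.

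The summed level of all members showed the same shift in each animal. In WY-treated HZ livers the sum was lowest at 2336, with a median of 2778 and a highest value of 2965 CPM, and in vehicle-treated HZ livers these values were 1827, 2201 and 2285 CPM. In WY-treated WT livers they were 2916, 3064 and 3250 CPM, and in vehicle-treated WT livers 2266, 2300 and 2385 CPM. Within each genotype the lowest WY animal thus stood above the highest vehicle animal. The mean sum after WY was 1.28 times that after vehicle in HZ livers and 1.33 times in WT livers. Member by member, all 7 WY animals stood above all 7 vehicle animals for 29 genes in HZ livers (12.6% of all genes tested did so) and for 49 genes in WT livers (15.7%). No member lay wholly below, as 9.89% of all genes did in HZ livers and 12.1% in WT livers. Without the 5 HZ libraries that stood apart, the HZ count was 50, and 20.1% of all genes tested were then without overlap on the higher side, with 4 WY against 5 vehicle animals. The 5 belong to both HZ groups, and vehicle animal 38 and WY animal 21 were the lowest of their groups.

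**Figure D1:**
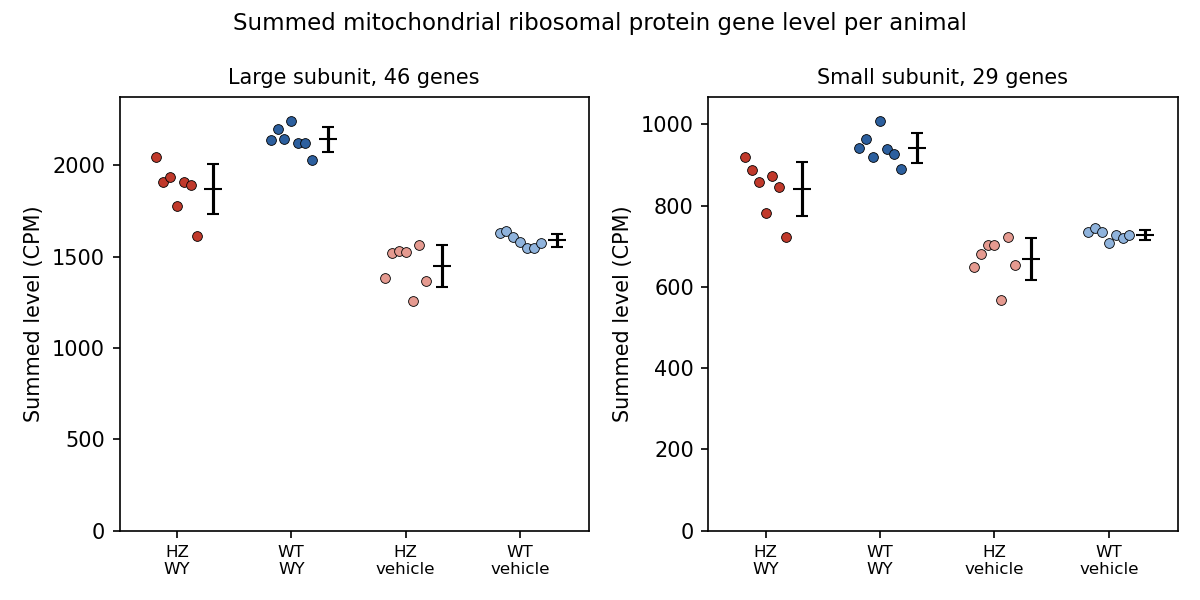
Summed level in CPM of the 46 large-subunit genes (left) and the 29 small-subunit genes (right), with 1 point per animal and the mean ± SD of 7 animals beside each group. Every WY animal lies above every vehicle animal of its genotype, except that the small-subunit sum of WY-treated HZ animal 21 (722.9 CPM) lies just below that of the highest vehicle-treated HZ animal (723.7 CPM), and the HZ groups spread more widely than the WT groups.

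Among large-subunit genes, 37 of 46 were higher and 1 lower after WY in HZ livers, and 40 higher and 1 lower in WT livers. Mrpl17, the counterpart of a bacterial large-subunit protein near the exit tunnel, changed most. It lay at 62.4 to 89.8 CPM in WY-treated HZ livers (median 72.7) and at 35.0 to 50.3 CPM in vehicle-treated HZ livers (median 45.8). In WT livers it lay at 85.4 to 102 CPM after WY (median 88.6) and at 48.4 to 58.0 CPM after vehicle (median 51.5). The groups did not overlap in either genotype, and the log2 fold changes were 0.75 ± 0.07 in HZ livers (SE, adjusted p = 1.14e-09) and 0.81 ± 0.07 in WT livers (adjusted p = 4.24e-10).

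Mrpl12, the most abundant member, lay at 124 to 167 CPM in WY-treated HZ livers (median 148) and at 71.6 to 111 CPM in vehicle-treated HZ livers (median 97.3). In WT livers it lay at 161 to 183 CPM after WY (median 178) and at 98.0 to 114 CPM after vehicle (median 104). Again no WY value fell into the vehicle range of its genotype. The log2 fold changes were 0.66 ± 0.07 in HZ livers (adjusted p = 2.05e-08) and 0.72 ± 0.07 in WT livers (adjusted p = 4.56e-09). Mrpl43 rose by 0.60 in HZ livers and 0.74 in WT livers, Mrpl51 by 0.67 and 0.70, Mrpl55 by 0.74 and 0.66, Mrpl52 by 0.55 and 0.72, and Mrpl37 by 0.58 and 0.62 on the log2 scale. The proteins of these 5 genes belong to the mitochondria-specific part of the large subunit, which bacterial ribosomes lack. Mrpl46 and Mrpl21 rose by 0.50 and 0.54 in HZ livers and by 0.57 and 0.51 in WT livers. Mrpl11, at the base of the stalk that Mrpl12 forms, rose less, by 0.35 in HZ livers and 0.45 in WT livers, and Mrpl3, a core protein near the peptidyl transferase centre, by 0.25 and 0.24.

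Mrpl39 went the other way. It lay at 32.4 to 38.8 CPM in WY-treated HZ livers (median 36.5) and at 37.6 to 48.2 CPM in vehicle-treated HZ livers (median 43.7). In WT livers it lay at 37.0 to 42.4 CPM after WY (median 39.6) and at 40.1 to 47.6 CPM after vehicle (median 45.1). The ranges overlapped in both genotypes, and the gene was called lower in both, with log2 fold changes of -0.24 ± 0.06 in HZ livers (adjusted p = 0.00158) and -0.16 ± 0.06 in WT livers (adjusted p = 0.0271). Mrpl44, which has an RNase III-like fold, had log2 fold changes of 0.09 in HZ livers and 0.01 in WT livers and was not called in either. Mrpl45, the protein that anchors the ribosome to the inner membrane, rose by 0.30 in HZ livers and 0.32 in WT livers. Mrpl48 was called in WT livers (0.22, adjusted p = 0.0359) and not in HZ livers (0.03).

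Among small-subunit genes, 21 of 29 were higher and 1 lower after WY in HZ livers, and 22 higher and none lower in WT livers. Mrps34, a mitochondria-specific protein that stabilises the small subunit in mice, had the largest change. It lay at 38.7 to 55.6 CPM in WY-treated HZ livers (median 51.2) and at 23.0 to 32.0 CPM in vehicle-treated HZ livers (median 29.7). In WT livers it lay at 48.9 to 62.3 CPM after WY (median 56.2) and at 29.3 to 34.9 CPM after vehicle (median 32.6). The ranges were separate, with log2 fold changes of 0.82 ± 0.08 in HZ livers (adjusted p = 6.65e-10) and 0.80 ± 0.08 in WT livers (adjusted p = 1.29e-09).

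The homologues of bacterial protein S18 did not move alike. Mrps18b rose by 0.76 in HZ livers and 0.66 in WT livers, and Mrps18a, the one placed in the large subunit, by 0.42 and 0.52. Mrps18c was called in WT livers (0.18, adjusted p = 0.0471) and not in HZ livers (0.12, adjusted p = 0.208). Mrps12, which contributes to the decoding site, rose by 0.47 in HZ livers and 0.59 in WT livers, Mrps16 by 0.56 and 0.60, and Mrps6 by 0.64 and 0.59. Mrps2 rose by 0.57 in HZ livers and 0.29 in WT livers. Mrps22 was called in HZ livers (0.23, adjusted p = 0.0133) and not in WT livers (0.12, adjusted p = 0.19). Mrps31 was called lower in HZ livers (-0.19, adjusted p = 0.0088) and not in WT livers (-0.07, adjusted p = 0.325).

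The members called higher were largely shared by the genotypes. The 57 genes called higher in both made up 98.3% of the HZ list and 91.9% of the WT list. Besides Mrpl39 and Mrps31, neither list held Mrpl1, Mrpl32, Mrpl40, Mrpl44, Mrpl50, Mrps15, Mrps27, Mrps30, Mrps33 and Mrps36. Mrps30 was at -0.01 in HZ livers and 0.11 in WT livers, and Mrps36 at 0.11 and 0.04. The test of the difference between the genotypes in the WY response called no member with edgeR, DESeq2 or limma. At an unadjusted p below 0.05 edgeR gave 3 of the 75 members, and 1182 of all 12607 genes tested. DESeq2 gave 5 members and limma 13, without a count over all genes beside them. The 3 from edgeR were Mrps2 (a log2 difference of 0.28), Mrpl9 (-0.25) and Mrps28 (-0.20), with adjusted p of 0.408, 0.435 and 0.532 in that order. Over all genes tested, 0% were called in that comparison.

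**Figure D2:**
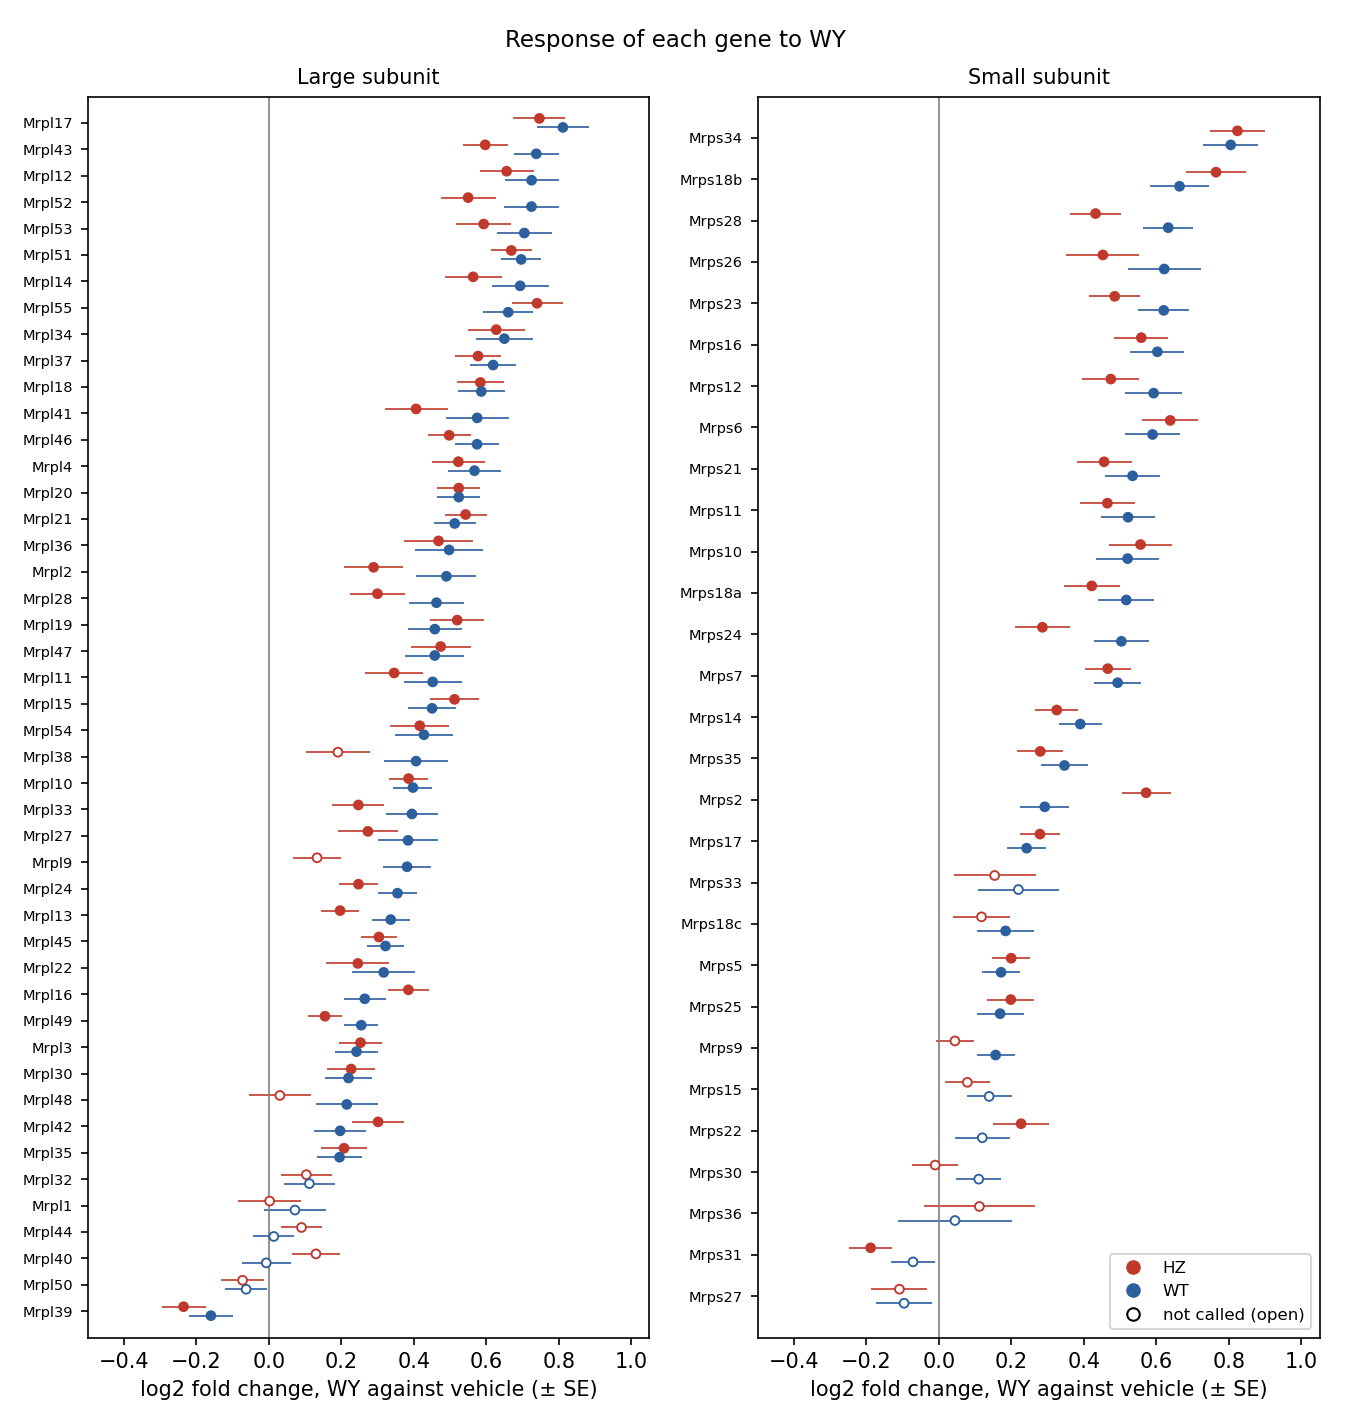
log2 fold change of WY against vehicle for each gene of the large (left) and small (right) subunit, ordered by the WT value, with HZ above WT in each row and bars of ± 1 SE from edgeR. Filled points passed an adjusted p of 0.05; most points lie right of 0, Mrpl17 and Mrps34 lead their subunits, and Mrpl39 lies left of 0 in both genotypes.

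The members have short transcripts, and genes of like length were called higher after WY somewhat more often than all genes. The members' median merged exon length was 1363 bases, against 3288.5 bases for all genes tested with a length. Among 8309 other genes of like length (within the members' 10th to 90th percentile of length), 34.1% were called higher after WY in HZ livers and 33.5% in WT livers, with median log2 fold changes of 0.08 and 0.07. The 59 members in that range had 72.9% called higher in HZ livers and 78.0% in WT livers, with medians of 0.33 and 0.41. With a smooth trend on length taken out of each library, the median of the members was 0.24 in HZ livers and 0.25 in WT livers. In that fit 44 members were called higher and 6 lower in HZ livers, and 49 higher and 8 lower in WT livers. In the same libraries the share of reads assigned to no gene averaged 7.11% in WY-treated HZ livers and 6.75% in WY-treated WT livers, against 8.43% in vehicle-treated HZ livers and 8.45% in vehicle-treated WT livers. Its part in the result was not tested. Hepatocyte markers were lower after WY, with 8 of 10 called lower in HZ livers and 7 of 10 in WT livers.

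With all libraries, heterozygous livers had less of the family on average under both treatments. The summed levels of the genotypes overlapped. Under WY the highest HZ animal stood at 2965 CPM and the lowest WT animal at 2916 CPM. Under vehicle these values were 2285 and 2266 CPM. Under WY, 13 members were lower in HZ than in WT livers and none higher, where 1.74% of all genes tested were called lower, 1.42% higher and 3.16% in either direction. Under vehicle, 5 members were lower and none higher, where 1.77% of all genes were called lower, 0.301% higher and 2.07% in either direction. The median log2 fold change of HZ against WT was -0.18 under WY and -0.13 under vehicle, against 0.01 and near 0 over all genes. A negative value was found for 73 members under WY and 72 under vehicle. Over all 12607 genes tested, 6054 were negative under WY and 6348 under vehicle. The mean summed level in HZ livers was 0.879 times that in WT livers under WY (2709 ± 203 and 3083 ± 103 CPM) and 0.914 times under vehicle (2118 ± 164 and 2317 ± 46 CPM; SD, n = 7 each). At an unadjusted edgeR p below 0.05, 56 of the 75 members passed under WY and 34 under vehicle. Over all 12607 genes tested, 3033 passed under WY and 2256 under vehicle.

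The count of calls differed without the 5 HZ libraries. Without them edgeR called no member in either treatment, and 48 of all genes tested under WY and 0 under vehicle. In that fit 28 members under WY and 14 under vehicle had an unadjusted p below 0.05. These counts have no count over all genes beside them, so they cannot be set against a share. The members' median was -0.14 under WY and -0.08 under vehicle. The mean centred log2 level over members of the remaining animals was 0.155 ± 0.051 in 4 WY-treated HZ livers, against 0.274 ± 0.048 in 7 WY-treated WT livers. Under vehicle it was -0.198 ± 0.070 in 5 HZ livers, against -0.118 ± 0.027 in 7 WT livers. With all libraries the HZ values were 0.095 ± 0.109 under WY and -0.252 ± 0.120 under vehicle. The count under WY also moved with 1 library: it was 3 without WY-treated HZ animal 15 and 29 without WY-treated HZ animal 2. It was 35 with DESeq2 and 29 with limma. The count under vehicle ran between 0 and 7 with single libraries left out, and was 0 without HZ animal 30.

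With all libraries, the macrophage markers leaned towards higher levels in HZ livers. All 12 had a positive log2 fold change of HZ against WT under both treatments, with a median of 0.59 under WY and 0.38 under vehicle, and none was called. At an unadjusted edgeR p below 0.05, 10 of the 12 passed under WY and 3 under vehicle. Over all 12607 genes tested, 3033 passed under WY and 2256 under vehicle. Without the 5 HZ libraries that stood apart, the median of the 12 markers was 0.07 under WY and 0.06 under vehicle. With all libraries, the summed level of the markers lay at 330 to 940 CPM in WY-treated HZ livers, against 283 to 481 CPM in WY-treated WT livers. Under vehicle it lay at 374 to 823 CPM in HZ livers, against 397 to 483 CPM in WT livers. Of the 5 HZ libraries that stood apart, WY animals 15 and 21 and vehicle animals 30 and 38 had member sums below their group medians. WY animal 14, with the highest marker sum, had a member sum of 2793 CPM, above its group median of 2778 CPM. Vehicle-treated HZ animal 71 is not among the 5. It had 380 CPM of markers and a member sum of 2020 CPM, below its group median of 2201 CPM. Of 4 neutrophil and monocyte markers tested, all had positive values and none was called. The part of these cells in the lower member levels was not tested. Of 10 hepatocyte markers, none was called between the genotypes under either treatment.

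Mrpl51 was the member called lower in HZ than in WT livers with WY and with vehicle. After WY it lay at 32.6 to 41.6 CPM in HZ livers (median 39.3) and at 41.9 to 49.7 CPM in WT livers (median 45.7). Under vehicle it lay at 21.2 to 26.2 CPM in HZ livers (median 24.7) and at 26.7 to 30.5 CPM in WT livers (median 28.2). Every HZ animal was below every WT animal under both treatments, with log2 fold changes of -0.25 ± 0.05 under WY (adjusted p = 0.0187) and -0.22 ± 0.06 under vehicle (adjusted p = 0.0358).  Under vehicle it was the only member without overlap, as were 0.23% of all genes on the lower side and 0.0397% on the higher side. Under WY 7 members had no overlap (0.896% of all genes on the lower side, 0.452% on the higher): Mrpl9, Mrpl18, Mrpl24, Mrpl45, Mrpl49, Mrpl51 and Mrps28. Without the 5 HZ libraries 8 members had none under WY, the same 7 and Mrpl15, with 4 HZ against 7 WT animals. Of all genes, 1.93% were then separate on the lower side and 1.69% on the higher. Under vehicle, with 5 HZ against 7 WT animals, it was again Mrpl51 alone (0.333% of all genes lower, 0.151% higher).

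Under WY the other calls were spread over both subunits, 10 in the large and 3 in the small. Mrpl49 lay at 33.9 to 39.0 CPM in HZ livers (median 36.5) and at 39.6 to 44.7 CPM in WT livers (median 42.6), a log2 fold change of -0.22 (adjusted p = 0.0164). Mrpl13 lay at 42.9 to 52.0 CPM in HZ livers (median 45.6) and at 51.9 to 59.1 CPM in WT livers (median 53.3), a log2 fold change of -0.24 (adjusted p = 0.0175). For Mrpl13 the highest HZ animal stood just above the lowest WT animal, and for Mrpl49 the groups were separate. Mrpl13, Mrpl49 and Mrpl51 were the members called under WY whichever single library was left out. Mrpl9 (-0.26), Mrpl14 (-0.30), Mrpl17 (-0.27), Mrps23 (-0.27) and Mrps28 (-0.27) had adjusted p between 0.0319 and 0.0349. Mrpl24, Mrpl33, Mrpl52, Mrpl53 and Mrps24 made up the remaining calls.

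Under vehicle the calls were Mrpl15 (-0.26, adjusted p = 0.0367), Mrpl16 (-0.22, adjusted p = 0.0453), Mrpl51, Mrps2 (-0.26, adjusted p = 0.0385) and Mrps6 (-0.29, adjusted p = 0.0494). Mrps2 lay at 32.1 to 46.4 CPM in HZ livers (median 41.4) and at 41.1 to 52.7 CPM in WT livers (median 50.6). Under WY the same gene lay at 54.3 to 68.0 CPM in HZ livers (median 59) and at 56.2 to 61.8 CPM in WT livers (median 59.8), a log2 fold change of 0.02. For Mrps2 the genotypes thus overlapped under both treatments, more fully under WY. Mrpl9 showed the opposite arrangement, with 42.7 to 50.8 CPM in HZ livers and 53.2 to 60.3 CPM in WT livers under WY, but 37.1 to 49.3 CPM in HZ livers and 38.6 to 49.7 CPM in WT livers under vehicle. Neither difference between treatments passed the test given above. Mrps36, the member that is not a ribosomal protein, was at 0.11 under WY and 0.05 under vehicle.

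**Figure D3:**
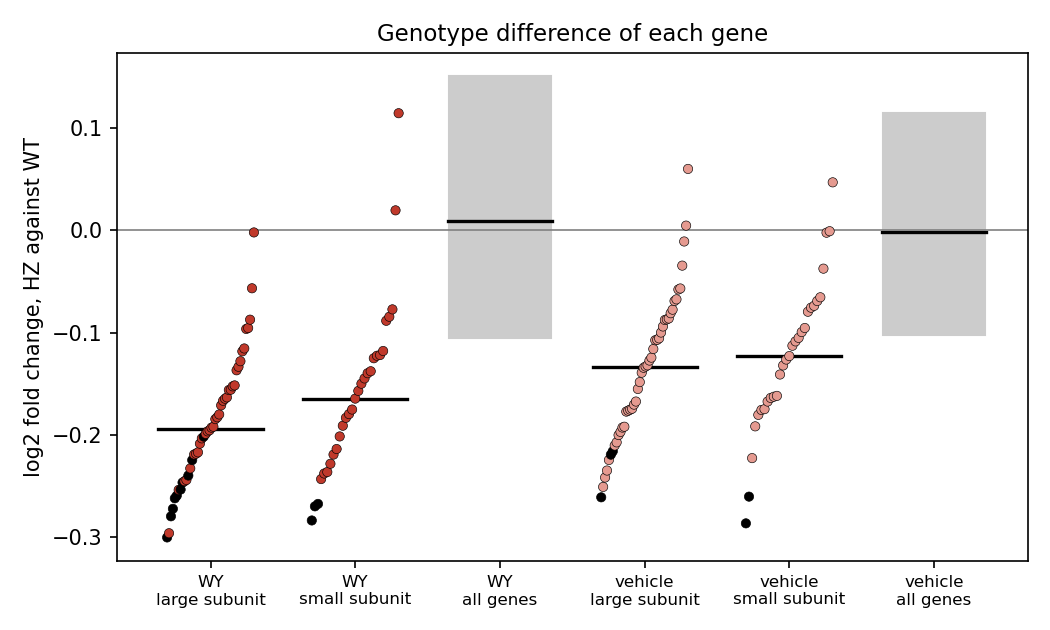
log2 fold change of HZ against WT under WY (left) and vehicle (right), with 1 point per gene, the median as a bar, black points for genes called at an adjusted p of 0.05, and grey boxes from the lower to the upper quartile of all 12607 genes tested. Most members lie below 0 in both subunits and treatments, while the all-gene medians lie near 0.

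The subunits kept a near-constant ratio. The large-subunit genes made up 69.0 ± 0.42% of the summed level in WY-treated HZ livers, 69.5 ± 0.30% in WY-treated WT livers, 68.4 ± 0.49% in vehicle-treated HZ livers and 68.6 ± 0.35% in vehicle-treated WT livers (SD, n = 7 each). The mean centred log2 level of the large-subunit genes minus that of the small-subunit genes was 0.006 ± 0.025 in WY-treated HZ livers and 0.034 ± 0.029 in WY-treated WT livers. It was -0.027 ± 0.017 in vehicle-treated HZ livers (-0.0091 with Mrps18a and Mrps30 counted as large-subunit genes and Mrps36 left out) and -0.013 ± 0.016 in vehicle-treated WT livers. These differences between subunits are small beside the shift that both made after WY, which was 0.36 for the large and 0.33 for the small subunit in HZ livers, and 0.41 and 0.36 in WT livers. The median log2 fold changes of the subunits were as close, at 0.37 (large) and 0.33 (small) in HZ livers and 0.44 and 0.39 in WT livers for WY against vehicle, and at -0.19 and -0.16 under WY and -0.13 and -0.12 under vehicle for HZ against WT.

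Members also varied together between animals when all 4 groups were pooled. After the group means were taken out of log2 CPM, the median Pearson correlation over 28 libraries was 0.43 for 2775 pairs of members, and 95.2% of the pairs were positive. Pairs of all genes tested had a median near 0 with 50.1% positive. The median was 0.45 within the large subunit, 0.40 within the small subunit and 0.43 across them. These points share libraries and depth, so the correlations describe these 28 livers. The genes that followed the mean of the other members most closely were Mrpl12 (0.91), Mrpl30 (0.86), Mrps12 (0.85), Mrpl11 (0.83) and Mrps10 (0.83). Mrpl45 and Mrpl38 did not follow it, at -0.14 each. In vehicle-treated HZ animal 38, which had the lowest summed level of members, Mrpl38 stood at 81.3 CPM, the highest value of its group, whose median was 53.2 CPM.

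**Figure D4:**
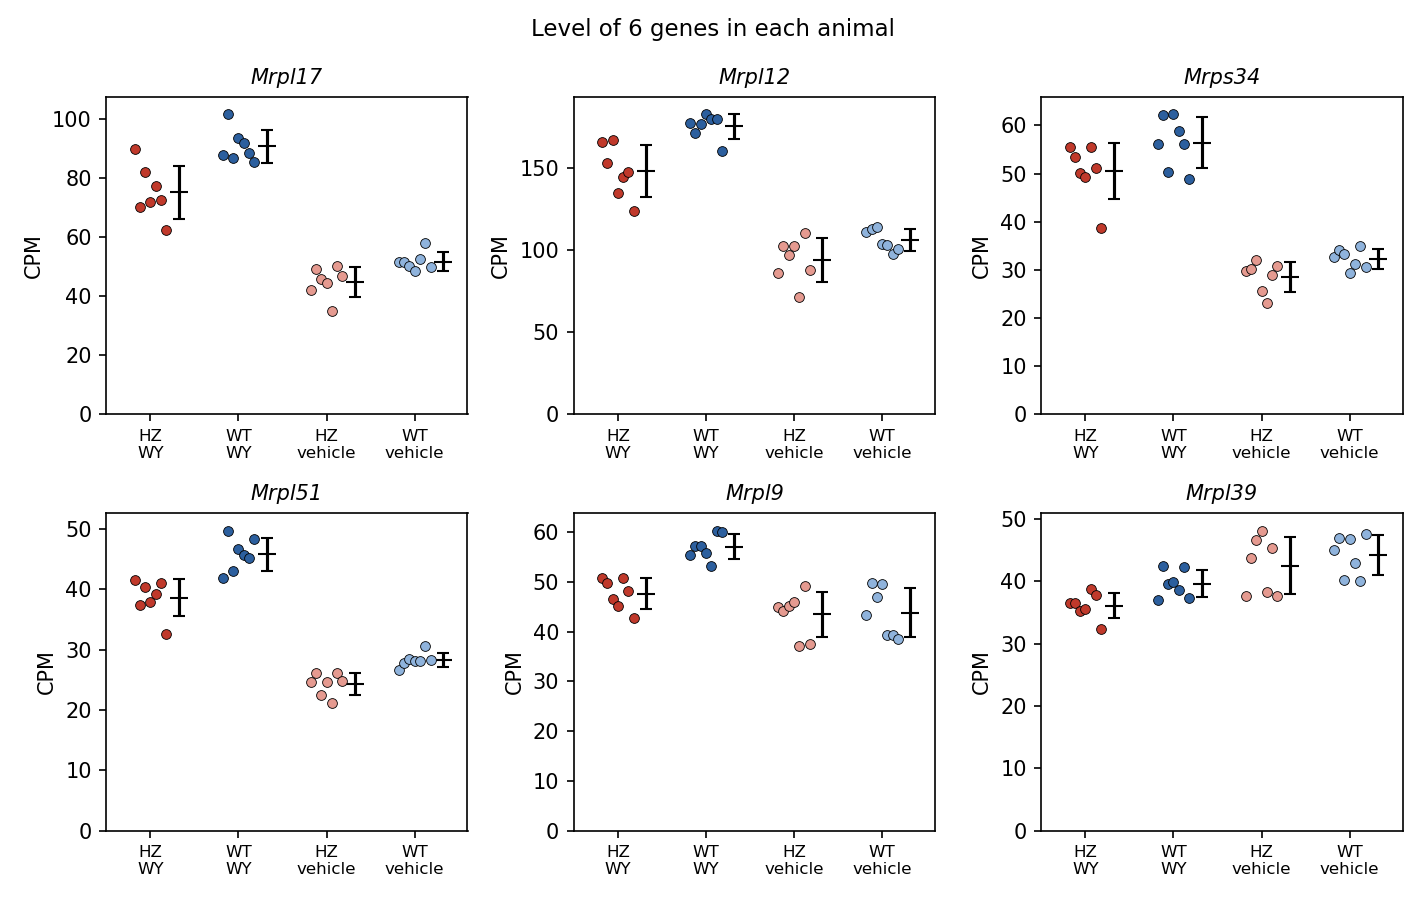
Level in CPM of 6 genes in each animal, with 1 point per animal and the mean ± SD of 7 animals beside each group, groups ordered HZ WY, WT WY, HZ vehicle and WT vehicle. Mrpl17, Mrpl12, Mrps34 and Mrpl51 are higher in all WY animals than in the vehicle animals of their genotype, Mrpl9 is separate between genotypes under WY and not under vehicle, and Mrpl39 is lower after WY with overlap.

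The mitochondrial ribosome also holds proteins that carry other names. Of 7 such genes, 3 were higher and 1 lower after WY in HZ livers, and 5 higher and none lower in WT livers. As shares, 42.9% were higher in HZ livers and 71.4% in WT livers, against 29.3% and 27.4% of all genes tested. Mrp63 rose by 0.60 in HZ livers and 0.67 in WT livers, and Ict1, a rescue factor built into the large subunit, by 0.32 and 0.40. Dap3, a GTP-binding protein of the small subunit, was called lower in HZ livers (-0.19, adjusted p = 0.00858) and not in WT livers (-0.01). Chchd1 (-0.31, adjusted p = 0.0207) and Ict1 (-0.22, adjusted p = 0.0472) were lower in HZ than in WT livers under WY. Without the 5 HZ libraries these values were -0.26 (adjusted p = 0.12) and -0.18 (adjusted p = 0.141), and Dap3 was not called.

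Soluble translation factors start, extend and end each protein. Of 16, 7 were higher and 1 lower after WY in HZ livers and 5 higher and 1 lower in WT livers, with medians of 0.11 and 0.07. The higher calls are 43.8% of the list in HZ livers, where 29.3% of all genes tested were called higher, and 31.2% in WT livers, near the 27.4% of all genes. Tsfm, the exchange factor of the elongation factor Tufm, averaged 18.8 CPM in WY-treated HZ livers and 11.8 CPM in vehicle-treated HZ livers, and 21.8 and 12.4 CPM in WT livers, log2 fold changes of 0.67 and 0.81. Tufm rose by 0.40 in HZ livers and 0.37 in WT livers, and Oxa1l, which inserts the new proteins into the inner membrane, by 0.32 and 0.30. Guf1, a back-translocating GTPase, fell by 0.17 in HZ livers and by 0.22 in WT livers. The initiation factors Mtif2 and Mtif3 had values of 0.06 and 0.07 in HZ livers and 0.02 and 0.06 in WT livers, not called.

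Of 25 genes for ribosome assembly and rRNA modification, 14 were higher and 2 lower after WY in HZ livers, and 15 higher and none lower in WT livers. Trub2, a pseudouridine synthase, rose by 0.94 in HZ livers and 0.72 in WT livers, Mpv17l2, which is needed for assembly, by 0.75 and 0.73, and the GTPase gene Mtg1 by 0.47 and 0.65. Noa1, another GTPase, was lower in HZ than in WT livers under WY (-0.30, adjusted p = 0.0438), the only call of this list between genotypes, and was at -0.25 without the 5 HZ libraries (adjusted p = 0.197). Of 20 genes for mitochondrial aminoacyl-tRNA synthetases and the glutaminyl-tRNA amidotransferase, 11 were higher and 3 lower in HZ livers, and 11 higher and 2 lower in WT livers. Here 55.0% of the list was called higher in each genotype, and 15.0% lower in HZ livers and 10.0% in WT livers. The shares of all genes were the same as for the assembly list. Qrsl1 rose by 0.87 in HZ livers and 0.70 in WT livers and Ears2 by 0.71 and 0.57, whereas Nars2 fell by 0.56 in HZ livers and 0.35 in WT livers. Iars2 fell by 0.23 in HZ livers and 0.25 in WT livers.

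The mitochondrial genome is copied into RNA by dedicated nuclear-encoded factors. Of 13 genes for transcription and RNA processing, 4 were higher and 4 lower after WY in HZ livers, and 4 higher and 3 lower in WT livers. The higher calls are 30.8% of the list in each genotype, near the shares of all genes given above. Tfam, which packages mitochondrial DNA and starts its transcription, rose by 0.56 in HZ livers and 0.49 in WT livers, and was lower in HZ than in WT livers under vehicle (63.0 and 75.6 CPM on average, log2 fold change -0.26, adjusted p = 0.03; without the 5 HZ libraries -0.21, adjusted p = 0.216). Polrmt, the RNA polymerase, rose by 0.64 in HZ livers and 0.49 in WT livers, and Pnpt1, a nuclease that degrades mitochondrial RNA, fell by 0.22 and 0.27.

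Of 9 nuclear regulators of mitochondrial genes, 4 were higher and 3 lower after WY in HZ livers, and 3 higher and 3 lower in WT livers. In HZ livers these are 44.4% and 33.3% of the list, against 29.3% and 26.4% of all genes tested. In WT livers they are 33.3% each, against 27.4% and 26.7%. Ppargc1a, the coactivator known for driving mitochondrial biogenesis, averaged 4.62 CPM in WY-treated HZ livers and 20.8 CPM in vehicle-treated HZ livers, and 3.83 and 15.4 CPM in WT livers, log2 fold changes of -2.17 and -2.01. The related Pprc1 rose by 0.69 in HZ livers and 0.79 in WT livers, and the orphan receptor Esrra by 0.61 and 0.58. Myc, an activator of ribosome genes, averaged 7.96 CPM in WY-treated HZ livers and 3.47 CPM in vehicle-treated HZ livers, and 14.7 and 4.04 CPM in WT livers, log2 fold changes of 1.19 and 1.85. Of the factors whose words were searched above, Gabpa fell by 0.36 in HZ livers and 0.47 in WT livers, and Yy1 fell by 0.32 and 0.29. Nrf1 was at 0.10 in HZ livers and 0.09 in WT livers, not called.

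The response to WY is given by promoter word as a description. Members with the NRF1 word in the window had a median log2 fold change of 0.30 in HZ livers and 0.39 in WT livers (19 genes), and those without it 0.35 and 0.46 (47 genes). With the ETS word they were 0.27 in HZ livers and 0.39 in WT livers (11 genes), and without it 0.33 and 0.40 (55 genes). With the YY1 word they were 0.36 in HZ livers and 0.50 in WT livers (8 genes), and without it 0.31 and 0.39 (58 genes). With the E-box they were 0.47 in HZ livers and 0.50 in WT livers (5 genes), and without it 0.30 and 0.39 (61 genes). With the half-site they were 0.46 in HZ livers and 0.48 in WT livers (10 genes), and without it 0.30 and 0.39 (56 genes). Of 21 neighbours tested that start head to head with a member, 12 were higher and 1 lower after WY in HZ livers, and 11 higher and 2 lower in WT livers, with medians of 0.32 and 0.26. These higher calls are 57.1% and 52.4% of the neighbours, against 29.3% and 27.4% of all genes tested. Eme2 and Ppp1r10, the neighbours of Mrps34 and Mrps18b, rose in WT livers by 0.96 and 0.51, whereas Ncapd2, the neighbour of Mrpl51, was at -0.01.

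Most genes of the cytosolic ribosome and the respiratory chain also rose. Of 75 cytosolic ribosomal protein genes tested, 49 were higher and none lower after WY in HZ livers, and 58 higher and 2 lower in WT livers, with medians of 0.42 and 0.49. Of 74 nuclear genes for respiratory chain and ATP synthase subunits, 59 were higher and 2 lower in each genotype, with medians of 0.29 in HZ livers and 0.36 in WT livers. Of the cytosolic list 65.3% was higher in HZ livers and 77.3% in WT livers, and of the respiratory chain list 79.7% in each. Over all genes tested the shares were 29.3% and 27.4%. Between genotypes under WY, 22 respiratory chain genes and 3 cytosolic ribosomal protein genes were lower in HZ than in WT livers, with medians of -0.21 and -0.19, beside 13 members with a median of -0.18. These are 29.7% and 4.0% of the lists, where 1.74% of all genes tested were called lower. Without the 5 HZ libraries 2 respiratory chain genes, no cytosolic ribosomal protein gene and no member were called. The comparisons that share animals are given side by side here and are not independent of each other.

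**Figure D5:**
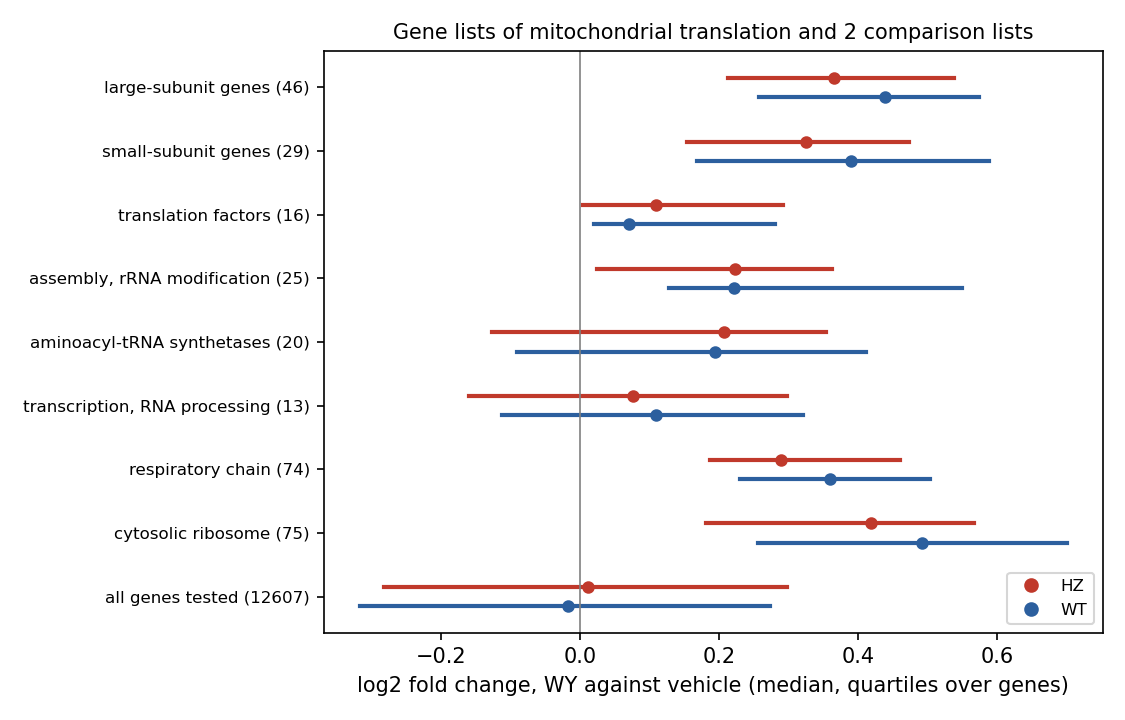
Median log2 fold change of WY against vehicle with lower and upper quartiles over the genes of each list, HZ above WT in each row, the number of genes tested in brackets. The ribosomal protein lists of mitochondria and cytosol and the respiratory chain have quartiles above 0, the lists of RNA synthesis and tRNA charging straddle 0, and all genes tested centre near 0.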

How the data were processed

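Liver RNA from 28 mice (7 per group) was made into libraries with the NEBNext Ultra kit from 1 ug of total RNA, per the labels' protocols. The authors deposited raw read counts per gene symbol in a vehicle table and a WY table. STAR 2.5.0a, HTSeq 0.6.1p1, DESeq2 1.18.1 and the build mm10 are named per the submitters' processing notes. The sources used here name neither the annotation nor the strand setting. Rows with garbled names (25 and 27) were dropped, and 23393 symbols were joined. Reads aligned to more than 1 place, 35.8 to 42.6% per library, stayed out of the counts, as did reads without a feature.

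Counts were tested with edgeR 4.0.16 (R 4.3.3; TMM, filterByExpr, robust quasi-likelihood F test, 4 groups in 1 fit), with Benjamini-Hochberg adjustment over 12607 genes and calls below 0.05. Each edgeR p-value sets a difference between group means against the spread between animals, estimated over all 4 groups together. DESeq2 1.42.0, limma 3.58.1, other filters, a length correction and leaving out each library were the alternatives. The fit was tested on simulated data. CPM uses TMM-scaled library sizes, and centred log2 levels use a prior count of 2. Exon lengths and neighbours came from GENCODE models for 23010 symbols, 1259 of them matched by synonym, and promoters from RefSeq. Genes were named by smallest p per comparison, highest and lowest level per kilobase, fixed roles, the limit of the rule and spread within groups. The members and lists were chosen with earlier results of these data known. A few further genes were named after their values were seen: those with the closest correlation to the other members, those without overlap between groups, and neighbours.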

Additional observations from a re-analysis of the deposited data

Results flagged for a closer look

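In 11 of 192 checks of a group of 7 animals, the highest or lowest animal lay far from the other 6, with a gap to its neighbour above 0.568 of the group's range. Chance gives about 1 in 20. WY-treated HZ animal 21 was the low animal for Mrps18c (0.686 of the range), Mrps34 (0.665) and Mrpl51 (0.571), and vehicle-treated HZ animal 38 for Mrpl15 (0.632) and Mrpl3 (0.604). Both are among the 5 HZ libraries that stood apart. WY-treated WT animal 25 was low for Mrpl44 (0.621) and Mrpl42 (0.572). Single high animals were WY-treated HZ animal 17 for Mrpl48 (0.621), WY-treated WT animal 19 for Mrpl55 (0.675), WY-treated WT animal 11 for Mrpl16 (0.601) and vehicle-treated WT animal 31 for Mrps30 (0.576).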

How the results depend on the processing

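The count of members called after WY lay between 57 and 66 in WT livers (63 in the report) and between 50 and 60 in HZ livers (60), and between 60 and 64 and between 59 and 62 with single libraries left out. With the length trend removed the calls were 49 higher and 8 lower in WT livers (62 and 1 in the report), with 51 of the 63 genes called in either direction, and 44 higher and 6 lower in HZ livers (58 and 2), with 46 of the 60 genes called, and the WT median moved to 0.25. The count of genotype calls was less stable. Under WY (13) it was 27 with DESeq2 size factors, 35 with DESeq2, 29 with limma, 3 without a filter on low counts, 4 with the length trend removed and 0 without the 5 HZ libraries, an alternative chosen after seeing the data. Single libraries left out gave 3 to 29. Under vehicle (5) it was 0 without a filter, 0 with only the groups compared, 1 with a term for vehicle animals 71 to 78, 3 with the length trend removed and 0 without the 5 HZ libraries, and 0 to 7 with single libraries left out. The median under WY in WT livers ran between 0.39 and 0.46 with single libraries left out. Sirt6 under vehicle had -0.96 with only the groups compared (adjusted p = 0.173) and -1.04 without the 5 HZ libraries (adjusted p = 0.0549). Non-overlapping genes in HZ livers numbered 50 without the 5. The subunit difference in vehicle-treated HZ livers was -0.0091 with subunits set by structure, against -0.027 in the report. With the length trend removed, these log2 fold changes after WY turned negative: Mrpl13 -0.0014 and Mrpl33 -0.037 in HZ livers, Mrps15 -0.15 in HZ livers and -0.16 in WT livers, and Mrpl16 -0.0026, Mrpl42 -0.15, Mrpl44 -0.21 and Mrps18c -0.12 in WT livers. The cause was not tested. No paired analysis was possible because animal numbers are not shared between groups.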
